A study of Homo sapiens with 4 samples.

Results

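In smoke-exposed human bronchial epithelial cells, 1580 m6A-enriched intervals of the list without METTL3 knockdown and 1578 of the list with it lay over each other on the same strand but did not begin and end at the same bases. They were chosen by position: a member shared at least 1 nt with an opposite-list interval of its own chromosome and strand, and no interval there had the same start and end. The members made up 14.3% of the 11038 intervals listed without knockdown and 11.5% of the 13691 listed with it. Both lists together held 3158 members among 24729 intervals. Another 7258 intervals had identical borders in both lists.

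The samples were 16-HBE, an established line of bronchial epithelial cells, and all received cigarette smoke extract (CSE) at 5% over 24 h. The first condition, CSE, carries the genotype label WT. In the second, siRNA-Mettl3+CSE, METTL3 was knocked down with siRNA. The labels name no control siRNA and no culture without smoke extract. Knockdown and transfection therefore cannot be told apart. Each condition had an m6A immunoprecipitation (IP) library and an input library, 4 samples in all, and 1 list of enriched intervals. The design text speaks of 3 replicates per condition, but with 1 list each there was no replicate spread, no test between conditions was possible, and every difference below is a difference between these lists. Read depth of the libraries is unknown from the lists.

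N6-methyladenosine (m6A) is written on nascent messenger RNA by a complex in which METTL3 is the catalytic subunit and METTL14 its partner. It is known to be dense around stop codons, in long internal exons and along the 3′ untranslated part of the last exon, and to be sparse near splice junctions. In MeRIP-seq the RNA is fragmented before an antibody pulls down the methylated pieces, so an enriched interval can hold several modified adenosines. Its border is where the list ends the enrichment over input, not the position of a modified base. Both borders agreed to the base in 7258 intervals of each list, and what placed the listed borders was not tested. Borders are given relative to the strand. The 5′ border is the one nearer the start of the RNA, the 3′ border the one nearer its end. Start and end positions chose the members, so the border values are descriptions. The authors' score and the distance to neighbouring intervals were not part of the choice. Positions are those of hg19, counted from 1. The lists carry no gene names, and no annotation or genome sequence of this build was used here, so the intervals are named by position.

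Nearly all members formed pairs, 1 interval of each list. Overlapping members fell into 1571 groups, of which 1555 (99.0%, Wilson 95% interval 98.4 to 99.4) were such pairs. In 7 groups an interval of the CSE list overlapped a pair of knockdown intervals, a split. In 9 groups a pair of CSE intervals overlapped a single knockdown interval, a merger. No group was more complex, 0 of 1571, which allows a share of up to 0.244% by the Wilson interval. Within 1512 of the 1555 pairs (97.2%, 96.3 to 97.9) the shorter interval lay wholly inside the longer one. The part common to both made up a median of 90.3% of the span the pair covered together (quartiles 75.7 and 96.9). Most members were thus intervals with 1 edge placed elsewhere, and few were displaced as a whole along the RNA. The 95% limits given with shares and medians cover counting error alone and treat intervals as independent.

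At the margin of the rule, 29 pairs differed by 1 nt at 1 border. The smallest overlap was 9 nt, on the plus strand of chromosome 16, where the CSE interval spanned 81902819 to 81902827 and the knockdown interval ended 11 nt further on, at 81902838. The next smallest were 19 nt on chromosome 6, where an interval of 96 nt in the CSE list was listed as 19 nt with knockdown, and 25 nt on chromosome 20, where 25 nt in the CSE list became 183 nt. Just outside the rule, 2 CSE and 2 knockdown intervals had no overlap but came within 10 nt of an interval of the other list, with a smallest gap of 2 nt in both lists.

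The border that moved was in most pairs the 3′ border. In 1194 of the 1555 pairs (76.8%, 74.6 to 78.8) the 5′ border was identical to the base and the 3′ border differed. In 267 pairs (17.2%, 15.4 to 19.1) the 3′ border was fixed and the 5′ border differed, and in 94 pairs (6.05%, 4.97 to 7.34) both differed. The orientation to the RNA, not to the chromosome, carried this asymmetry, because the 3′ border is the right end of an interval on the plus strand and the left end on the minus strand. On the plus strand 593 of 775 pairs differed at the 3′ border alone (76.5%, 73.4 to 79.4), and on the minus strand 601 of 780 (77.05%, 74.0 to 79.9).

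With METTL3 knockdown the intervals more often grew than shrank. The knockdown interval was the wider one in 991 pairs (63.7%, 61.3 to 66.1) and the narrower one in 564 (36.3%, 33.9 to 38.7), and in 0 pairs were the widths equal. The lists also differed outside these pairs. The knockdown list held 13691 intervals and the CSE list 11038. Intervals with identical borders had a median score of 534.52 (510.48 to 555.01) with knockdown and 275.75 (264.25 to 287.03) in the CSE list. A part of these differences in the growth was not tested. The balance of growth and shrinkage depended on the border. Where the 3′ border alone differed, it lay further out with knockdown in 816 pairs and further in in 378, so that 68.3% (65.7 to 70.9) grew. Where the 5′ border alone differed, 114 pairs grew and 153 shrank, and the share that grew was 42.7% (36.9 to 48.7). The 95% limits of these shares do not overlap. Growth at the 3′ border was the more frequent outcome on either strand, with 417 against 176 pairs on the plus strand and 399 against 202 on the minus strand. Among the 94 pairs with both borders moved, 41 reached further out on both sides with knockdown and 10 were drawn in on both sides. In 24 the 5′ border moved in and the 3′ border out, and in 19 the reverse, whatever the size of either shift.

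**Figure D1:**
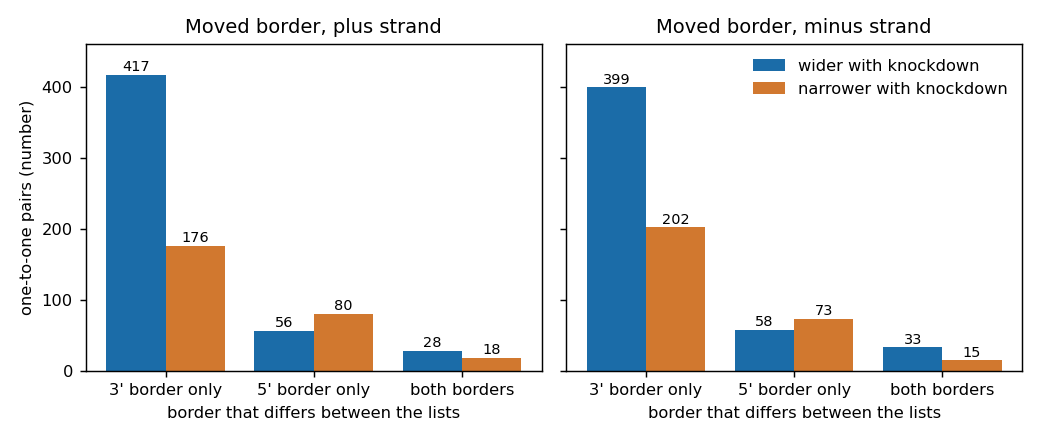
Number of pairs by the border that differs between the lists, on the plus strand (left) and the minus strand (right). Blue bars count pairs whose knockdown interval is the wider one, orange bars those whose knockdown interval is the narrower one. The tallest bar on each strand, 417 and 399 pairs, is growth at the 3′ border alone, while at the 5′ border the orange bars, 80 and 73 pairs, are the taller ones.

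Shifts ranged from 1 nt to several kilobases, and most were short beside the intervals themselves. The median shift was 134 nt (95% interval of the median 126 to 149) over the 1288 3′ borders that differed and 64 nt (48 to 80) over the 361 5′ borders. Outward shifts were longer than inward ones. At the 3′ border the medians were 163 nt outward (141 to 180) and 97 nt inward (79 to 120), and at the 5′ border 108 nt outward (61 to 142) and 48 nt inward (37 to 66), where the limits overlap slightly. Shifts of up to 10 nt made up 8.15% of the 3′ and 17.7% of the 5′ shifts, and shifts over 1000 nt were found at 100 3′ and 18 5′ borders.

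Long 3′ shifts pointed outward with knockdown more often than short ones, though not step by step. Of the 105 shifts of up to 10 nt, 61.9% (52.4 to 70.6) were outward, of the 243 over 10 and up to 50 nt 59.3% (53.0 to 65.2), and of the 452 over 50 and up to 200 nt 65.3% (60.8 to 69.5). Above that it was 74.8% (69.4 to 79.6) of the 278 shifts up to 500 nt, 80.9% (72.6 to 87.2) of the 110 up to 1000 nt, and 80.0% (71.1 to 86.7) of the 100 over 1000 nt. At the 5′ border 43.75% (32.3 to 55.9) of the 64 shifts of up to 10 nt were outward. It was 40.0% (30.9 to 49.8) of those over 10 and up to 50 nt, and 42.1% (33.1 to 51.5) up to 200 nt. Of those over 200 and up to 500 nt it was 68.5% (55.3 to 79.3). Of the 18 shifts up to 1000 nt it was 72.2% (49.1 to 87.5), and of the 18 over 1000 nt 61.1% (38.6 to 79.7). In summed length, knockdown intervals reached 299.6 kb further at their 3′ borders and fell short by 97.1 kb there, a net extension of 202.5 kb. At the 5′ borders 47.9 kb were added and 29.4 kb left out, a net 18.5 kb. The pairs covered 2486.9 kb in the CSE list and 2708.0 kb in the knockdown list, so that the knockdown total was 8.89% larger. Per pair, intervals that grew gained a median of 12.8% of their CSE width and those that shrank lost a median of 6.63%. The CSE width is the narrower one in pairs that grew and the wider one in pairs that shrank, so these percentages have unlike bases. In nt the median changes were 158 and -76.5. The knockdown width was at least 2 times the CSE width in 62 pairs, and the CSE width at least 2 times the knockdown width in 21.

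**Figure D2:**
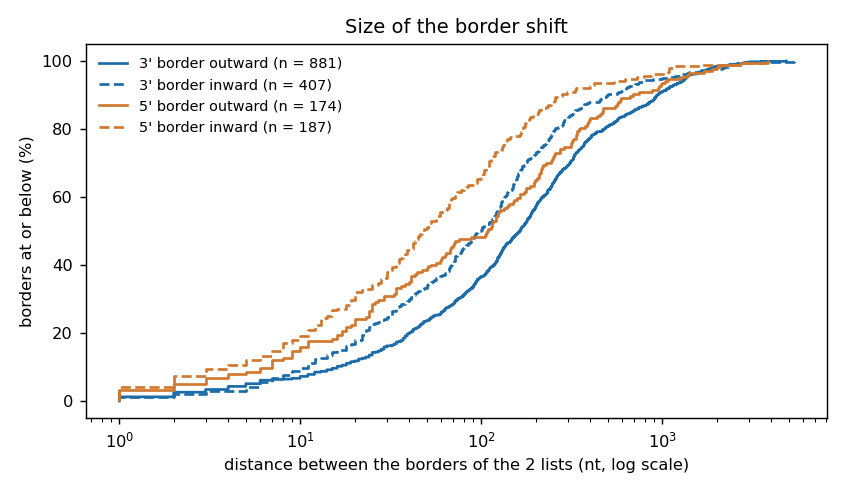
Cumulative share of borders by the distance between their positions in the CSE and knockdown lists, in nt on a log axis. Solid lines are borders that lie further out with knockdown, dashed lines those that lie further in, with 3′ borders in blue and 5′ borders in orange. The solid blue line lies furthest to the right over its middle part, with a median of 163 nt, and the dashed orange line furthest to the left, with a median of 48 nt.

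The largest growth at the 3′ border was found on the minus strand of chromosome 7. There the CSE list had an interval of 794 nt (92764511 to 92765304), and the knockdown list one of 5641 nt with the same 5′ border (92759664 to 92765304), a growth of 4847 nt. The authors' score, a value per interval within its own list from which no change in m6A is read here, was 180.9 (CSE) and 1350.5 (knockdown). Second came chromosome 2, minus strand, with 4142 nt (204301995 to 204306136) that became 7650 nt by 3508 nt at the 3′ side. Here the CSE interval had the higher value within its list, 3092.6, against 547.6 in the knockdown list, and the next listed interval downstream lay 1195164 nt away. Growth also occurred at the top of the score range. In 38 pairs scored exactly 3100 in both lists the 3′ border alone moved out, by 2 to 1891 nt with a median of 238.5 nt. The first of them by position were short extensions. An interval of chromosome 1 (minus strand) scored 3100 in both lists was 528 nt wide in the CSE list (16133667 to 16134194) and 10 nt longer with knockdown. On the plus strand of the same chromosome an interval of 2893 nt (27105514 to 27108406), again 3100 in both, was 55 nt longer.

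Retreat of the 3′ border with knockdown reached 2849 nt. This was on chromosome 22, plus strand, where 3584 nt (41791749 to 41795332) in the CSE list stood against 735 nt (41791749 to 41792483) with knockdown, at scores of 142.9 and 57.5. A retreat of 2795 nt followed on chromosome 8, minus strand, from 3772 nt (22545224 to 22548995) to 977 nt. Among intervals with scores of 3100 in both lists, the first by position retreated by 52 nt (chromosome 1, plus strand, 46072154 to 46074627 in the CSE list) and by 36 nt (chromosome 1, minus strand, 200374416 to 200378851). Both were wide, 2474 and 4436 nt, and so kept nearly all of their length. Over the 16 such pairs the retreat had a median of 71.5 nt and a range of 1 to 468 nt.

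At the 5′ border the largest growth was 3838 nt, on the minus strand of chromosome 10, from 500 nt (46957555 to 46958054) to 4338 nt (46957555 to 46961892). The scores there were low in both lists, 72.8 and 131.6. Another on chromosome 1, minus strand, of 1241 nt (6475294 to 6476534) reached 2679 nt further upstream with knockdown, at scores of 68.1 and 468.6. A high-scoring case lay on the plus strand of chromosome 5, where 554 nt (80600407 to 80600960) became 1121 nt by 567 nt at the 5′ side, at scores of 3101.4 and 3100. A wide interval of chromosome 12, minus strand, of 2886 nt (46319925 to 46322810) with scores of 3230.1 and 3100 gained 245 nt upstream. The largest retreat of a 5′ border was 3630 nt, on the plus strand of chromosome 4, where 5175 nt (126237567 to 126242741) became 1545 nt at scores of 98.5 and 73.0. On chromosome 16, minus strand, 3591 nt (4239375 to 4242965) became 817 nt. Among 5 retreats of a 5′ border with a score of exactly 3100 in both lists, from 1 to 175 nt, the first by position were of 20 nt on chromosome 2, minus strand (47397873 to 47398494 in the CSE list), and 52 nt on chromosome 8, minus strand (27467992 to 27468658).

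Pairs with both borders moved combined these changes. Chromosome 7, minus strand, held an interval of 1480 nt (75165407 to 75166886) that became 4198 nt because the 3′ border moved out by 2787 nt, while the 5′ border moved in by 69 nt. For an interval of chromosome X, minus strand, the growth was on both sides, 1245 nt at the 5′ and 1097 nt at the 3′ border, from 1456 nt (106306288 to 106307743) to 3798 nt. The largest loss of width in any pair was 5350 nt, on the minus strand of chromosome 13. There 8611 nt (114053925 to 114062535), scored 1522.5 in the CSE list, stood against 3261 nt (114059248 to 114062508), scored 272.2 with knockdown, and 5323 nt of the difference lay at the 3′ side. A chromosome 22 interval, minus strand, of 4853 nt (20455994 to 20460846) was drawn in by 863 nt at its 5′ and 2137 nt at its 3′ border. Among the highest scores, an interval of chromosome 1, minus strand (152079558 to 152083905) grew by 250 nt at the 5′ and 394 nt at the 3′ border. For an interval of chromosome 6, minus strand (99848054 to 99849506), the 5′ border moved in by 192 nt and the 3′ border moved out by 524 nt. A pair of intervals on the plus strand of chromosome 2, starting at 132021206 and 131414400 in the CSE list, both began 7 nt further in and were both 841 nt wide with knockdown. They had been 1211 and 847 nt wide in the CSE list, and the second ended 1 nt further out with knockdown.

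**Figure D3:**
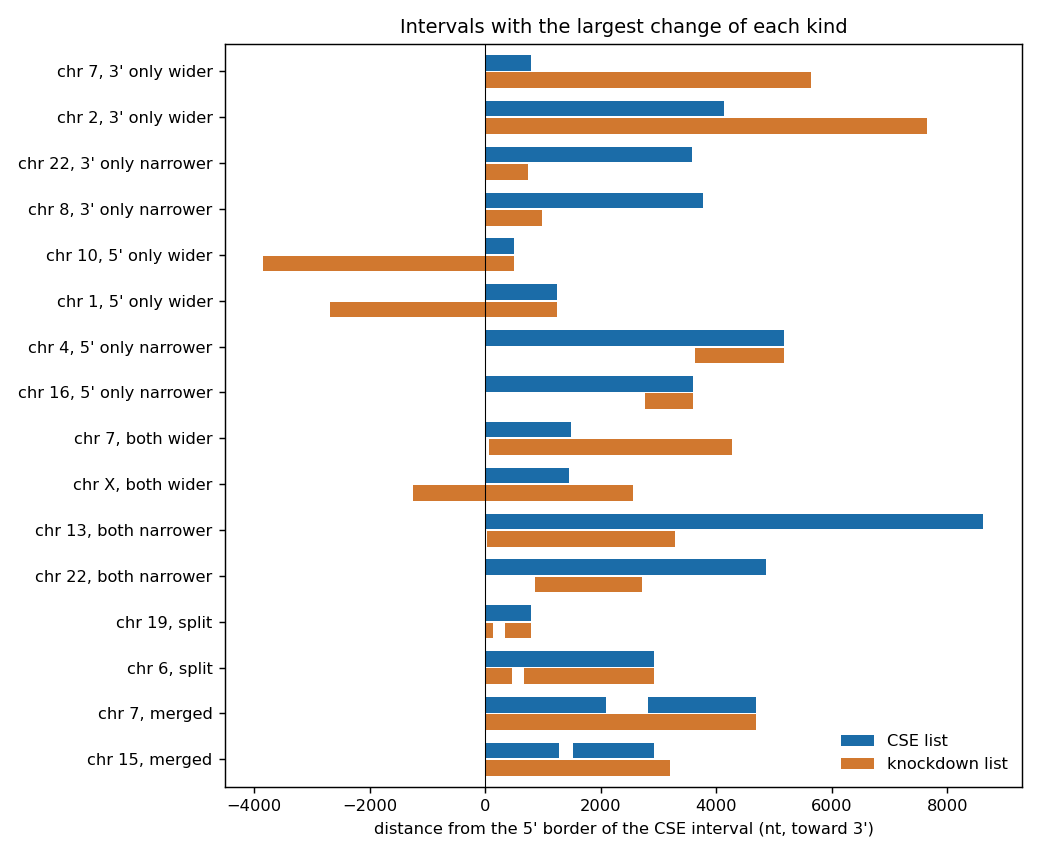
Intervals with the largest change of each kind, drawn to scale from the 5′ border of the CSE interval toward the 3′ end, in nt. Blue bars are intervals of the CSE list and orange bars those of the knockdown list. In the rows for the 3′ border the bars start together at 0 and end apart, by 4847 nt in the first row, and in the rows for the 5′ border they end together. The split and merged rows show a gap in 1 list that the other list covers.

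Splits and mergers were rare. In all 7 splits the outer 5′ border of the knockdown intervals was the 5′ border of the CSE interval, and in 6 of them the outer 3′ border was the same too, so that the change was an unlisted gap inside an unchanged span. The gaps were 18 to 204 nt long with a median of 52 nt. The widest opened on chromosome 19, plus strand (45542779 to 45543569), where 791 nt became 134 and 453 nt, and the next, of 200 nt, on chromosome 6, plus strand (43471361 to 43474291), where 2931 nt became 469 and 2262 nt. On chromosome 21, minus strand (33973977 to 33975602) a gap of 18 nt divided an interval of 1626 nt into 481 and 1127 nt, all with scores of 3100. A split on chromosome 5, plus strand (140739703 to 140742138), had a gap of 19 nt, and there the 5′ part was the wider one, 1755 against 662 nt. In the other 6 splits the 3′ part was the wider one.

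In the mergers the outer 5′ border was identical in 8 of 9 groups and the outer 3′ border in 3 of 9. The gaps that the knockdown interval covered were longer than those in the splits, 32 to 729 nt with a median of 135 nt, although with 9 and 7 groups the 95% intervals of the medians, 96 to 345 and 18 to 204 nt, overlap. The largest addition was 729 nt on chromosome 7, plus strand (2649678 to 2654368), where intervals of 2087 and 1875 nt were listed as a single interval of 4691 nt. It was followed by 530 nt on chromosome 15, minus strand (55836144 to 55839345), where a gap of 244 nt closed and the 3′ border moved out by 286 nt. The mergers whose lowest score was highest, 730.4 and 485.6, lay on the minus strand of chromosomes 16 (21846969 to 21849065) and 9 (135766735 to 135772141). Their gaps were 135 and 345 nt, and their 3′ borders moved out by 50 and 48 nt.

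Members were wide intervals. Their median width was 1258.5 nt in the CSE list (quartiles 716 and 2137.3) and 1413 nt in the knockdown list (773.3 and 2334.0), against 204 nt (130 and 584) for intervals with identical borders. The share of overlapping intervals whose borders differed was low among short intervals and rose from class to class between 200 and 5000 nt. In the CSE list it was 1.27% (0.730 to 2.21) of the 942 intervals of up to 100 nt, 0.712% (0.456 to 1.11) of the 2669 intervals over 100 and up to 200 nt, 17.2% (14.8 to 19.9) of the 831 over 300 and up to 500 nt, and 50.8% (47.4 to 54.2) of the 821 over 2000 and up to 5000 nt. With knockdown the shares in these classes were 0.958%, 0.898%, 14.9% and 54.2%. Above 5000 nt it was 47.8% (36.3 to 59.5) of 67 CSE intervals and 52.7% (41.5 to 63.7) of 74 knockdown intervals. Short intervals that overlapped one of the other list thus nearly always had the same borders there. Among overlapping intervals over 2000 and up to 5000 nt identical and different borders were about equally frequent. The 2200 CSE and 4855 knockdown intervals without any overlap are outside these shares.

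Which border moved also changed with width. Among the 87 pairs of up to 300 nt in the CSE list, 71.3% (61.0 to 79.7) differed at the 5′ border alone and 26.4% (18.3 to 36.6) at the 3′ border alone. From 500 to 1000 nt the order was the opposite, with 16.9% (13.5 to 21.1) at the 5′ and 79.3% (74.9 to 83.1) at the 3′ border, and from 2000 to 5000 nt the 3′ border alone differed in 86.3% (82.7 to 89.3). Classed by knockdown width the pattern was the same, with 80.0% at the 5′ border in pairs of up to 300 nt and 84.0% at the 3′ border from 2000 to 5000 nt. The 5′ shifts of the short intervals were small, with a median of 24.5 nt (16 to 34), while their 25 3′ shifts had a median of 88 nt (8 to 106). The share that grew is not given by width, since a pair that grew falls in a higher width class in the knockdown list by construction.

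**Figure D4:**
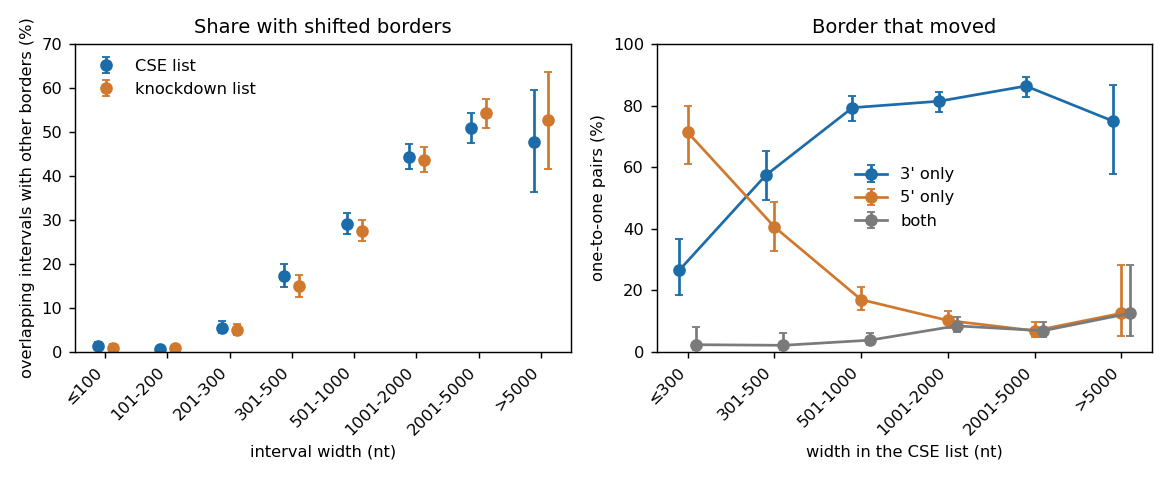
Left, share of overlapping intervals whose borders differ, by interval width, in the CSE list (blue) and the knockdown list (orange). Right, share of pairs that differ at the 3′ border alone (blue), the 5′ border alone (orange) or both (grey), by width in the CSE list. Bars are Wilson 95% intervals; the blue points on the left lie at 0.712% over 100 and up to 200 nt and at 50.8% over 2000 and up to 5000 nt, and on the right the 5′ border leads in the class of up to 300 nt and the 3′ border in all wider classes.

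Members were found at all levels of the score. When overlapping intervals were ranked by score and divided into 5 classes of equal size, members made up between 17.1% and 19.0% of each class without knockdown. With knockdown the share fell from 20.8% (18.9 to 22.7) in the lowest class to 14.5% (12.9 to 16.2) in the highest. The score rises with width, however, and at like width the members had the lower scores of each list. In the CSE list the median score of intervals over 1000 and up to 2000 nt was 283.6 (243.8 to 333.5) for members and 580.7 (513.6 to 657.2) for intervals with identical borders. Over 2000 nt it was 498.7 (412.6 to 567.3) and 1077.7 (918.3 to 1300.6). With knockdown the corresponding medians were 404.9 and 983.3, and 640.3 and 1734.2. Among intervals of up to 300 nt in the CSE list the medians were closer, 168.0 (127.2 to 211.9) and 209.2 (198.4 to 218.4), and their limits overlap.

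The direction of the shift differed little with the score. In the class of pairs with the lowest CSE scores, 50.2 to 102.4, 60.1% (54.6 to 65.4) grew with knockdown, and in the class with the highest, 949.3 to 3230.1, 68.5% (63.1 to 73.4) grew. Classed by knockdown score the shares were 62.7% (57.2 to 67.9) and 65.9% (60.5 to 71.0), and the limits overlap. The 3′ border alone differed in 67.5% (62.1 to 72.5) of the pairs with the lowest and 82.6% (78.0 to 86.4) of those with the highest CSE scores, and in 70.7% and 83.3% by knockdown score. Growth and the predominance of the 3′ border were therefore present in each of the 5 classes of either score.

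A listed neighbour within 10 kb was less frequent on the side of the moved border than on the side that stayed. For each pair the nearest further interval of either list on the same strand was sought, since no gene models of hg19 were used here. Of the 1194 pairs with a moved 3′ border, 111 (9.30%, 7.78 to 11.1) had such a neighbour within 10 kb downstream, on the side that moved, and 420 (35.2%, 32.5 to 37.9) within 10 kb upstream, on the side that stayed. Of the 267 pairs with a moved 5′ border, 51 (19.1%, 14.8 to 24.2) had a neighbour upstream, on the side that moved, and 97 (36.3%, 30.8 to 42.3) downstream. Intervals with identical borders were nearly symmetric, with a neighbour upstream in 43.9% (42.8 to 45.05) and downstream in 45.1% (44.0 to 46.3). Among identical intervals over 1000 nt it was 29.0% (26.4 to 31.8) upstream and 18.8% (16.6 to 21.2) downstream. Members over 1000 nt in the CSE list are nearer to these in width. Their downstream share of 6.40% (5.02 to 8.14) was lower, while their upstream share of 29.8% (27.0 to 32.8) was about the same. Within 10 kb the sparse downstream side did not depend on the direction of the shift, with 9.31% among 3′ borders that moved out and 9.26% among those that moved in. Within 50 kb the shares were 22.5% (19.8 to 25.5) and 28.3% (24.0 to 33.0), and their limits overlap.

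The same can be read by position. Of the 418 pairs with a neighbour within 10 kb upstream but none downstream, 89.2% (85.9 to 91.9) differed at the 3′ border alone. Of the 148 pairs with a neighbour downstream but none upstream, 43.2% (35.5 to 51.3) did so and 52.0% (44.0 to 59.9) differed at the 5′ border alone. These classes also differ in width. Over all matched intervals the median CSE width was 358 nt (298 to 411) with a neighbour upstream only. With a neighbour downstream only it was 200.5 nt (189 to 209). Short pairs differed mostly at the 5′ border, and a part of width in this contrast was not tested. Without a neighbour on either side, 77.0% (74.2 to 79.6) of 922 pairs differed at the 3′ border alone, so the predominance of the 3′ border was also present where neighbours gave no order. Intervals with neighbours on both sides seldom had shifted borders. Pairs with different borders made up 3.61% (2.85 to 4.56) of the 1855 matched intervals with neighbours on both sides, and 26.3% (24.9 to 27.8) of the 3505 with none. Matched intervals with neighbours on both sides were also shorter, with a median CSE width of 159 nt (153 to 163) against 629 nt (592 to 669) with none. Among those over 1000 nt in the CSE list, pairs with different borders made up 20.2% (13.6 to 28.9) of 104 with neighbours on both sides and 49.0% (46.3 to 51.7) of 1284 with none.

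**Figure D5:**
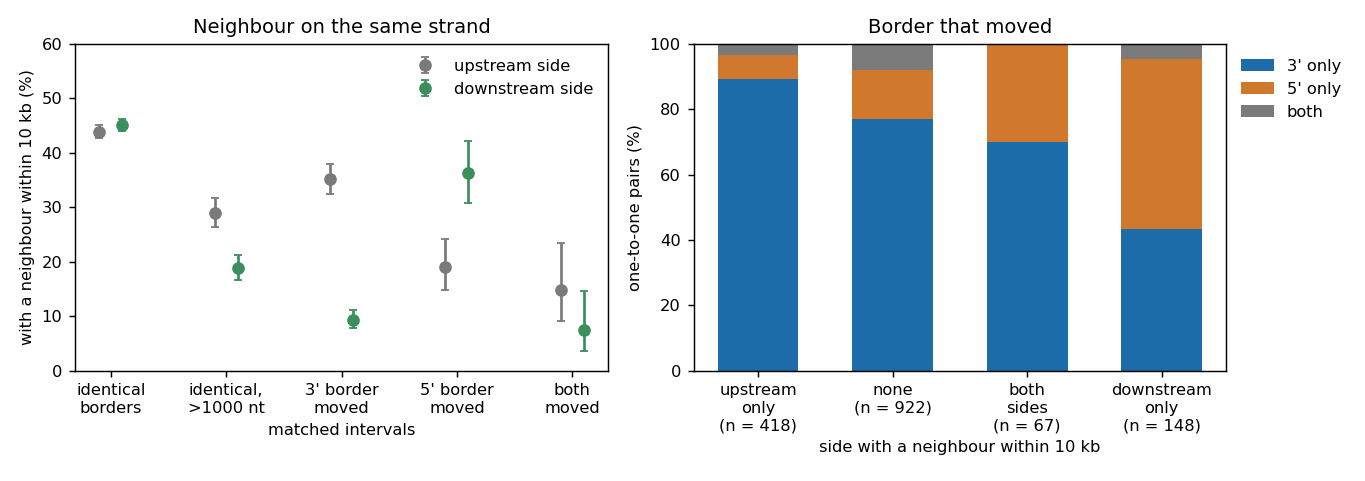
Left, share of matched intervals with a further listed interval on the same strand within 10 kb upstream (grey) or downstream (green), with Wilson 95% intervals, for intervals with identical borders and for pairs by the border that moved. Right, share of pairs by the border that moved, for pairs with a neighbour on the upstream side, on neither side, on both sides or on the downstream side. Pairs with a moved 3′ border have few downstream neighbours, 9.30%, and the orange share on the right is tallest, 52.0%, where the neighbour lies downstream.

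Shifted borders were spread over the genome. Pairs were found on 23 chromosomes, 1 to 22 and X, and on each of these more pairs grew with knockdown than shrank and more differed at the 3′ border alone than at the 5′ border alone. The share that grew ran from 52.9% (31.0 to 73.8) of 17 pairs on chromosome 22 to 73.8% (61.6 to 83.2) of 61 pairs on chromosome X. The share with the 3′ border alone ran from 47.1% (26.2 to 69.0) on chromosome 22 to 86.7% (62.1 to 96.3) of 15 pairs on chromosome 21. Of the 167 pairs on chromosome 1, 66.5% (59.0 to 73.2) grew. For growth, the limits of chromosomes 22 and X overlap. For the 3′ border, the limits of chromosome 22, the lowest of the 23 and with 17 pairs, overlap those of chromosome 21. They lie below those of several others. Among these are chromosome 4, with 86.25% (77.0 to 92.1) of 80 pairs, chromosome 3, with 83.7% (74.8 to 89.9) of 92, and chromosome 19, with 80.7% (72.3 to 87.0) of 109.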

How the data were processed

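The authors deposited 1 list of enriched intervals per condition, with 6 columns and no header. Per the submitters' processing notes, the aligner was HISAT2 2.0.4 and the build hg19. Interval names start with MACS, per the files; the sources used here give no caller version or settings and do not say how replicates were handled. The score is the authors' deposited value per interval, with no stated scale. It starts at 50.02 in both lists and stands at exactly 3100 for 620 CSE and 1113 knockdown intervals, so ranks among the highest scores rest on ties broken by position.

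Lists were compared by position in Python 3.11.15 with pandas 2.3.3, numpy 2.4.6 and SciPy 1.17.1. Figures used matplotlib 3.10.9. Overlapping intervals were joined into groups and borders compared relative to the strand. The grouping was tested on simulated lists with known shifts. Shares carry Wilson 95% intervals and medians exact binomial order-statistic intervals. For each kind of change the 2 groups with the largest change in covered length and the 2 whose lower score was highest are named. The members, lists and alternatives were chosen with earlier results of these data known; the 10 kb window for neighbours was chosen after seeing the data. Planned gene lists, exon borders and motifs need hg19 annotation and were not run.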

Additional observations from a re-analysis of the deposited data

How the results depend on the processing

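Alternatives gave 74 values. For 45 of them the change was below counting error (for counts, below 1.5 times), and 29 moved. A reversal was defined only for the share of pairs wider with knockdown, and 0 were found there. No paired analysis was possible because each condition has 1 list. Under the main rule members made up 17.9% of overlapping intervals in either list. Counting borders within 10 nt as identical gave members at 16.1% of overlapping intervals in either list, and median shifts of 155 nt (3′) and 106 nt (5′). Within 50 nt the share was 12.5% in either list, the medians 208.5 and 177 nt, with 81.8% of pairs at the 3′ border alone, 13.0% at the 5′ border alone and 68.3% wider with knockdown. These changes follow from leaving out short shifts. With 50% reciprocal overlap the share was 16.9% in either list, with 0 splits and 0 mergers, by construction. Among the 50% of intervals with the higher scores, with fewer intervals by construction, there were 734 CSE and 731 knockdown members (16.6% of overlapping intervals in either list), 725 pairs, 1 split and 4 mergers. There, 81.9% of pairs differed at the 3′ border alone, 13.2% at the 5′ border alone and 4.83% at both, and 66.8% were wider with knockdown. Within 5 and 50 kb, 6.11% and 24.4% of pairs with a moved 3′ border had a downstream neighbour, and within 50 kb 36.3% of those with a moved 5′ border had an upstream one. These windows were added after seeing the data. Depth, background and replicate spread cannot be judged from the lists.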
